A study of Homo sapiens with 12 samples.

Results

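Interferon-stimulated genes were followed across untreated and withaferin A (WA) exposed cells of the GC-sensitive line MM1S and the GC-resistant line MM1R, where GC stands for glucocorticoid. The set held 45 genes of the 43735 listed in the count table, chosen by symbol as interferon-stimulated genes and their regulators, with IFIT5 and RTP4 placed among them because they were already known to fall with WA in MM1R. All 45 were listed, 43 had a read in at least 1 library, and 37 were among the 14085 genes with enough reads to be tested. The 12 RNA-seq libraries formed 4 groups of 3 cultures: MM1S untreated (MM1S UT), MM1S exposed for 3 h to 1 µM WA (MM1S WA), MM1R untreated (MM1R UT) and MM1R exposed in the same way (MM1R WA). MM1S and MM1R are established human multiple myeloma lines that come from the same patient, so each stands for 1 cell population and not for patients. The MM1S cultures were at passages 16, 22 and 23 and the MM1R cultures at passages 4, 6 and 7, each passage being present once untreated and once with WA, so line and passage cannot be told apart in a comparison between lines. WA is a steroidal lactone from Withania somnifera that binds cysteines covalently, and the labels call the other cultures untreated without naming a solvent control.

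Type I and type III interferons bind receptors that signal through the kinases JAK1 and TYK2 to STAT2, which joins IRF9 in the complex ISGF3. ISGF3 binds the interferon-stimulated response element (ISRE) in the promoters of its targets, while the gamma-activated site (GAS) serves targets of interferon gamma. Many of the targets hinder viral replication by sensing viral RNA, binding or degrading it, stopping translation or trapping virions, and several are also expressed at a basal level without added interferon. Plasma cells and the myelomas that arise from them depend on another member of the interferon regulatory factor family, IRF4.

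The libraries held between 17625110 and 19368343 reads assigned to genes, and replicates of a group differed by far more than sampling noise (chi-square divided by its degrees of freedom, 8.74 to 48.7), so no library was a copy of another. The labels were checked on 3 genes. HMOX1, which encodes the heme oxygenase induced by electrophiles, had 174 to 439 reads in untreated and 10323 to 49388 reads in WA libraries. NR3C1, the glucocorticoid receptor, had 1580 to 2929 reads in MM1S and 196 to 331 in MM1R, and BTK had 95 to 211 reads in MM1S and 672 to 1289 in MM1R. All 7 plasma cell markers were expressed, with a summed level of 3582 to 5507 CPM (read counts scaled to a common library size with TMM factors). Of the other cell types, 2 of 4 T or NK cell markers had more than 3 reads in some library (summed 3.42 to 11.6 CPM, nearly all CD3E, with NKG7 at 0), as had 2 of 3 monocyte markers (at most 0.669 CPM), 1 of 3 dendritic cell markers (FLT3, at most 2.35 CPM summed, with CLEC4C at 0) and 1 of 3 stromal markers. The stromal marker was COL1A1, whose summed level with the other 2 was 0.497 to 2.34 CPM untreated and 2.30 to 17.9 CPM with WA, and its part in the results below was not tested.

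The stretches just upstream of the start site are shown for 6 genes on which the results turn: the 2 genes that fell most with WA (IFIT5 and RTP4), their relatives IFIT1 and IFIT3, and 2 genes that rose (EIF2AK2 and XAF1). The sequences are from RefSeq, build GRCh38.p14, and run 5′ to 3′ on the strand of the gene from base -150 to base -1 before an annotated start. Capitals mark each match to the core of the ISRE, written GAAANNGAAA on either strand.
IFIT5, chr10:89414418-89414567, plus strand: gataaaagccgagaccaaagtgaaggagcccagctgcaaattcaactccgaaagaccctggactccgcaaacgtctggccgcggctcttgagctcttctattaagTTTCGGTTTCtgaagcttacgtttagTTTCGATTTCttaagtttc
RTP4, chr3:187368235-187368384, plus strand: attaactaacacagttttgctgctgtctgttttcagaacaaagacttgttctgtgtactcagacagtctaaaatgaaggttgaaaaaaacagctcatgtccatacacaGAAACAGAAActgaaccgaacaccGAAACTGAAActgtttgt
IFIT1, chr10:89392473-89392622, plus strand: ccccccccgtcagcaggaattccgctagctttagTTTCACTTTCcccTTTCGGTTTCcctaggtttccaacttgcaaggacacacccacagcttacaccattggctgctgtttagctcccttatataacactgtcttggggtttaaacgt
IFIT3, chr10:89332379-89332528, plus strand: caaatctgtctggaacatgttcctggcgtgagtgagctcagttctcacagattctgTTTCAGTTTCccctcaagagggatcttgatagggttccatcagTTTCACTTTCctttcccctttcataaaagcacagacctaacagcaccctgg
EIF2AK2, chr2:37156981-37157130, minus strand: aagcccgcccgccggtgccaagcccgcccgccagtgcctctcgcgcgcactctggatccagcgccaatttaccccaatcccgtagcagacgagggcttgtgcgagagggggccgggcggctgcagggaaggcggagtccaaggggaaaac
XAF1, chr17:6755896-6756045, plus strand: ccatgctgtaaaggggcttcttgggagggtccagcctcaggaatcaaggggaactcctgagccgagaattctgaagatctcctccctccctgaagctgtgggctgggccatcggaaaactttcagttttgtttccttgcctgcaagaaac

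RefSeq entries were at hand for 36 of the 45 genes, with 49 start sites in all. IRF7, USP18, DHX58, IFIT2, OAS2, OASL, MX2, IFITM2 and TRIM22 are named only. In the 250 bases before the start, 25 of the 49 starts (51.0%) held GAAANNGAAA on either strand, overlapping matches included, against 3.02% of all 35116 starts in the table. By gene, taking the start with the most matches, 22 of the 36 had a match and 13 had at least 2. Of all single starts in the table, 0.225% had at least 2. That share is per start and is not on the same basis as the counts by gene. The GAS core, TTCNNNGAA, was present at 11 of the 49 starts (22.4%), against 6.57% of all starts. IFIT5 held ISRE matches that began at -45 and -19, and RTP4 held them at -42 and -18, so the pair had matches at nearly the same distances from the start. Neither EIF2AK2 nor XAF1 held a whole match in the 250 bases before the start. The stretches shown for them end in gaaaac and gaaac, which could open a match that runs past the start. Matches that cross the start were not searched for. The result therefore does not show that EIF2AK2 or XAF1 lacks the ISRE core at its start. A match describes these letters only and is not evidence of binding.

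In untreated cells the level of the genes, given here as CPM per kilobase of the canonical transcript, spanned a wide range in both lines. BST2, which encodes tetherin, a protein that holds budding virions at the cell surface, was the highest at 318 ± 5.06 CPM per kilobase in MM1S and 317 ± 50.1 in MM1R (SD, n = 3). The next ones in MM1S were ADAR, the RNA-editing adenosine deaminase (52.2 ± 5.30), ISG20, an RNA exonuclease (43.6 ± 9.07), STAT2 (40.3 ± 6.65), IRF1, a transcription factor (28.9 ± 0.333), and IFI35 (24.6 ± 1.40). MM1R had the same 6 in the same order, at 45.2 ± 5.36 for ADAR, 43.4 ± 6.23 for ISG20, 32.5 ± 7.44 for STAT2, 31.7 ± 0.578 for IRF1 and 28.0 ± 2.52 for IFI35. BST2 lay apart from the rest. The ranges of ADAR and ISG20 overlapped in each line, as did those of ISG20 and STAT2, whereas IRF1 lay just above IFI35 with no overlap.

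**Figure D1:**
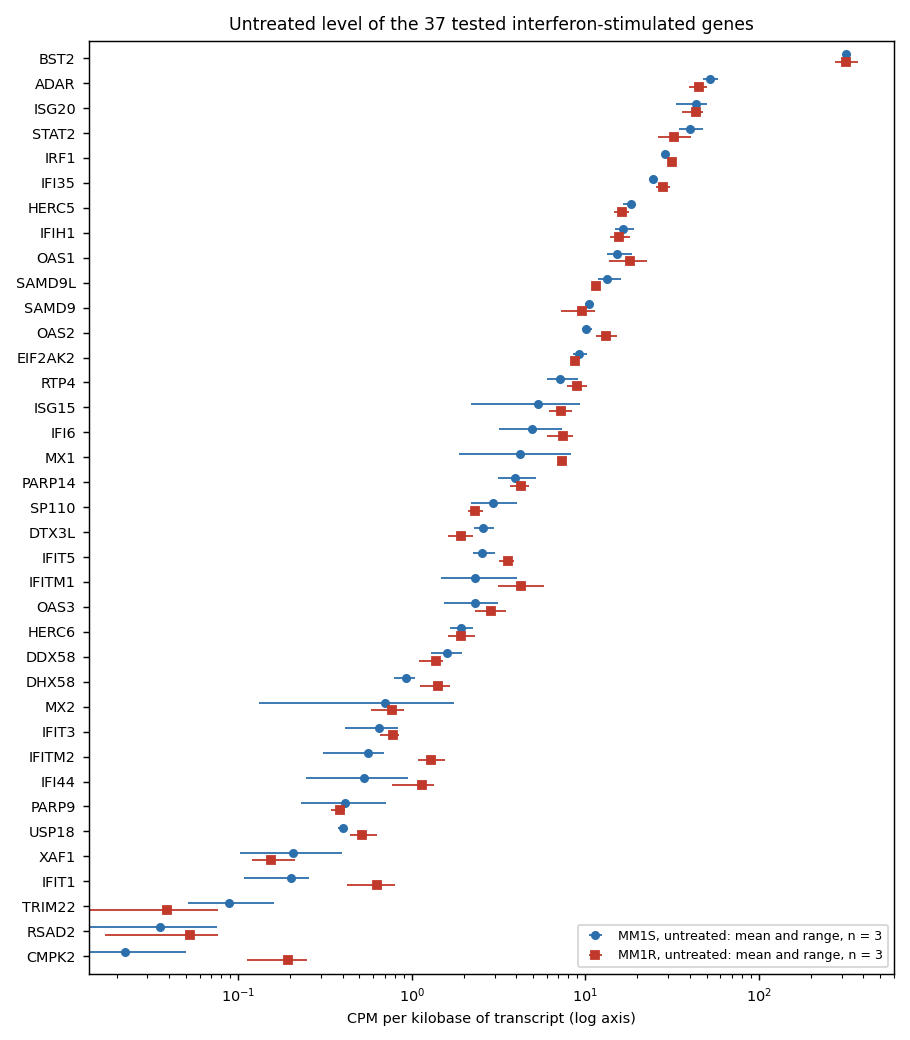
Untreated level of the 37 tested genes in CPM per kilobase of transcript on a log axis, with points at the mean and bars from the lowest to the highest of 3 libraries, for MM1S (circles) and MM1R (squares); bars that reach 0 run off the left edge. BST2 sits alone at the top near 318 and 317, and the bars of the 2 lines overlap for most genes, while those of IFIT1 and IFIT5, among others, do not.

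Several classical interferon targets had few or no reads. IFIT2 had at most 1 read and IFITM3 at most 3 reads in any library, and IRF9 and IFI27 were listed at 0 in all 12. The 0 of IRF9 cannot be read as absence, since its widely expressed chromosomal neighbours RNF31 and EMC9 were also listed at 0 and PSME2 had only 4 to 17 reads. IRF9 and IFI27 each had a second entry, also at 0 in all 12 libraries, and whether the 0 of IFI27 means absence was not tested. IRF7, the factor that drives interferon genes, had 4 to 13 reads in the entry of that symbol, while a second entry named IRF7_1 held 47 to 169. With both summed, IRF7 had log2 fold changes with WA of 0.34 in MM1R (adjusted p = 0.57) and 0.00 in MM1S (adjusted p = 1.00). OASL (2 to 19 reads), IFI44L (0 to 34) and LGALS3BP (4 to 10) also stayed below the filter. With no filter on low counts, IFI44L, an interferon-induced gene of unsettled function, had 0, 1 and 0 reads in MM1R UT and 34, 9 and 1 in MM1R WA at passages 4, 6 and 7. In MM1S it had 0, 0 and 2 reads untreated and 15, 3 and 1 with WA at passages 16, 22 and 23.

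Interferon genes themselves were close to silent. Of 20 ligand genes, IFNG had at most 8 reads, IFNA21 and IFNL1 at most 2, IFNB1 1 read in 1 library, and the other 16 were at 0 throughout. The receptors were present, with IFNAR1 at 247 to 350 CPM and IFNAR2 at 164 to 257 CPM over the 12 libraries. TMEM173, which encodes the adaptor STING, had 1 read in 1 library, whereas MAVS, the adaptor of RIG-I and MDA5, was at 94.7 to 144 CPM.

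The first comparison asked whether the resistant line differed from the sensitive line before treatment. None of the 37 genes passed the limits of that comparison (adjusted p under 0.01 and a log2 fold change of at least 1 in size, edgeR's quasi-likelihood test), at which 2.97% of all tested genes were called, and DESeq2 called none either. At an unadjusted p under 0.05 there were 4 (10.8%, beside 25.9% of all tested genes), and the median log2 fold change, MM1R minus MM1S, was 0.15 over the 37 genes and 0.01 over all tested genes. With the adjusted p under 0.05 and no limit on the fold change, 11.9% of all genes and 1 of the 37 were called, namely IFIT1, which was chosen here after its values were seen. IFIT1, whose protein binds RNA that lacks a methylated cap, was at 1.82, 2.85 and 3.44 CPM in MM1R (35 to 59 reads) and at 1.04, 0.465 and 1.09 CPM in MM1S (9 to 22 reads). The groups did not overlap, and the line difference on the log2 scale was 1.63 ± 0.43 (SE, adjusted p = 0.025, range over the alternatives 0.000778 to 0.113, the highest without MM1S UT passage 22). IFIT5 (log2 0.50 ± 0.25, adjusted p = 0.23) and RTP4 (0.32 ± 0.23, adjusted p = 0.41) were not called between the untreated lines.

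Some untreated levels varied widely between the MM1S cultures. MX1, a dynamin-like antiviral GTPase, was at 21.6, 19.3 and 20.5 CPM in MM1R, but at 22.9 CPM in passage 16 and 7.13 and 5.22 CPM in passages 22 and 23 of MM1S. MX2 showed the same picture, at 3.07, 2.85 and 1.98 CPM in MM1R and at 6.01, 0.723 and 0.447 CPM in MM1S. When the cultures of passages 4 and 16 were left out of both lines, 3 of 34 genes were called between the lines (IFI44, IFIT1 and MX1, all higher in MM1R), against 5.25% of all genes tested there. This fit was chosen after the values were seen. Passage 16 held the highest untreated MM1S value of MX1, and of IFI44 (1.61 CPM, against 0.413 and 0.646 CPM). These calls therefore support no difference between the lines. Leaving out the untreated culture of passage 16 alone, none of 40 genes tested was called between the lines.

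WA exposure was next compared with no treatment in each line. In MM1R, 4 of the 37 genes were called (10.8%, adjusted p under 0.05), EIF2AK2 and XAF1 being higher and IFIT5 and RTP4 lower with WA. That share stood beside 14.0% of all tested genes (7.55% higher, 6.46% lower), and without IFIT5 and RTP4, which entered the set because of this contrast, it was 2 of 35 (5.71%). In MM1S, 7 of the 37 were called (18.9%), with EIF2AK2 and BST2 higher and IFIT5, RTP4, IFIT3, SAMD9 and SAMD9L lower, beside 10.5% of all genes (6.25% higher, 4.23% lower), and 5 of 35 (14.3%) without the pair. EIF2AK2, IFIT5 and RTP4 were called in both lines in the same direction, which is 75% of the MM1R calls and 42.9% of the MM1S calls. Without the pair chosen for its fall in MM1R, 1 of 2 MM1R calls and 1 of 5 MM1S calls were shared, and over all tested genes 61.0% of the MM1R and 81.6% of the MM1S calls were. Over the 37 genes the median log2 fold change came to 0.18 for MM1R and 0.08 for MM1S, and over all genes to 0.01 for each line. In such bulk samples fewer cells of a type and less RNA per cell cannot be told apart.

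Same-passage cultures deviated together from their group means, though passages 22 and 23 of MM1S did so with each other as well. The fit with passage as a replicate block is therefore given beside these counts. Under the block, 20 of the 37 genes were called in MM1R (10 higher, 10 lower, 54.1%) beside 29.1% of all genes (14.7% higher, 14.4% lower). In MM1S the block gave 19 (8 higher, 11 lower, 51.4%) beside 24.1% of all genes (12.5% higher, 11.7% lower). Of these, 16 were called in both lines, all in the same direction (80% of the MM1R and 84.2% of the MM1S calls), beside 68.4% and 82.3% over all genes. Without IFIT5 and RTP4 the block called 18 of 35 (51.4%) in MM1R and 17 of 35 (48.6%) in MM1S, with 14 shared (77.8% and 82.4%). The genes called under the block in both lines were BST2, DDX58, EIF2AK2, MX1, MX2, PARP9, TRIM22 and XAF1 on the higher side and HERC5, IFIH1, IFIT5, OAS1, OAS3, RTP4, SAMD9 and SAMD9L on the lower side. Of these, TRIM22 and XAF1 met the filter mainly through WA libraries, with 0 and 2 of the 6 untreated libraries above its limit of 0.539 CPM, so their place on the higher side supports nothing about the set. The same holds for RSAD2, called in MM1R, with 0 of the 6 above that limit. The block shares given above count these genes, so their distance from the shares of all genes is not read as a result about the set. DHX58, IFIT1, IRF1 and RSAD2 were called in MM1R and not in MM1S, and DTX3L, IFIT3 and OAS2 in MM1S and not in MM1R, with no test of a difference passing for any of them.

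IFIT5 had the largest decrease of the set in both lines. It encodes an RNA-binding protein of the IFIT family, lies on chromosome 10 (91174325 to 91180754, plus strand, GRCh37) beside IFIT1 and IFIT3, and has 2 exons. In MM1R it was at 12.9, 14.98 and 15.6 CPM untreated and at 1.49, 1.58 and 0.548 CPM with WA, at passages 4, 6 and 7. In MM1S it was at 12.2, 9.51 and 9.05 CPM untreated and at 1.46, 1.28 and 0.819 CPM with WA, at passages 16, 22 and 23. Every WA library was thus far below every untreated library of either line. The log2 fold change was -3.57 ± 0.30 (SE) in MM1R, an 11.9-fold lower level given as a description, and -3.10 ± 0.30 in MM1S (8.58-fold lower, adjusted p = 2.9e-05). Reads fell from 248 to 273 in MM1R UT to 9 to 28 in MM1R WA, which leaves the WA levels the less precise ones.

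RTP4, a receptor transporter protein on chromosome 3 (187086173 to 187089864, plus strand, GRCh37), followed the same course. It went from 11.7, 13.2 and 15.3 CPM to 2.45, 2.59 and 2.31 CPM in MM1R, and from 13.6, 9.09 and 9.55 CPM to 2.87, 1.87 and 1.36 CPM in MM1S. No WA library reached an untreated one. The log2 fold change was -2.44 ± 0.25 in MM1R (5.44-fold lower, given as a description) and -2.40 ± 0.25 in MM1S (5.27-fold lower, adjusted p = 5.9e-05). Within the 6 passage pairs the change of RTP4 was narrow, from -2.72 to -2.21 on the log2 scale (with 0.1 CPM added), while that of IFIT5 ran from -4.60 to -2.80.

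The other expressed members of the IFIT family moved less evenly. IFIT3, the partner of IFIT1, was at 1.66, 0.982 and 1.99 CPM in MM1S UT and at 0.379, 0.694 and 0.273 CPM in MM1S WA. Its groups did not overlap, and it fell in MM1S by 1.76 ± 0.45 on the log2 scale (adjusted p = 0.025). That call was lost without MM1S UT passage 16 or 23 or MM1S WA passage 16 or 23 (adjusted p up to 0.101). In MM1R, IFIT3 was at 2.03, 1.98 and 1.57 CPM untreated and at 1.55, 0.788 and 0.548 CPM with WA (log2 -0.94, adjusted p = 0.15), where each WA library was below each untreated one. IFIT1 had log2 fold changes of -1.15 in MM1R (adjusted p = 0.082) and -1.75 in MM1S (adjusted p = 0.056). At passage 4 of MM1R it was at 1.82 CPM untreated and 1.92 CPM with WA, whereas passages 6 and 7 went from 2.85 and 3.44 CPM to 1.01 and 0.669 CPM. Without passages 4 and 16, a fit chosen after the values were seen, the change of IFIT1 in MM1R was -1.88.

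SAMD9 and SAMD9L, neighbouring restriction factors on chromosome 7, were called lower in MM1S. SAMD9 was at 76.7, 67.7 and 69.3 CPM untreated and at 52.9, 48.8 and 39.6 CPM with WA (log2 -0.60 ± 0.16, adjusted p = 0.033). SAMD9L was at 84.6, 88.8 and 115 CPM untreated and at 58.4, 67.5 and 53.5 CPM with WA (log2 -0.68 ± 0.14, adjusted p = 0.0086). The untreated and WA libraries of MM1S did not overlap for either gene. In MM1R the values were -0.47 (adjusted p = 0.069) and -0.43 (adjusted p = 0.061). The SAMD9 call in MM1S was lost on leaving out any MM1S UT culture, MM1S WA passage 22 or 23, or MM1R WA passage 6 (adjusted p up to 0.128), and the SAMD9L call without MM1S UT passage 23 (0.0506).

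The oligoadenylate synthetases, whose product activates the ribonuclease RNase L, were not called in the edgeR fit of 14085 genes without the block. With no filter on low counts, edgeR called OAS1 in MM1R (adjusted p = 0.0072) and in MM1S (0.0017). With only the 6 libraries compared, OAS1 was called in MM1S. OAS1 was at 36.8, 29.4 and 22.3 CPM in MM1R UT and at 26.8, 20.8 and 12.1 CPM in MM1R WA, and at 23.1, 30.4 and 21.6 CPM in MM1S UT and 18.2, 15.2 and 14.5 CPM in MM1S WA. The groups overlapped in MM1R and not in MM1S, and each of the 6 passages was lower with WA. Its log2 fold changes were -0.57 in MM1R (adjusted p = 0.15, 0.0054 with the block) and -0.65 in MM1S (0.12, 0.0050 with the block), over alternatives that ran from 0.00103 to 0.469 and from 0.000527 to 0.366. OAS2 and OAS3 were lower in every pair as well, with log2 values between -0.41 and -0.27 across both lines.

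**Figure D2:**
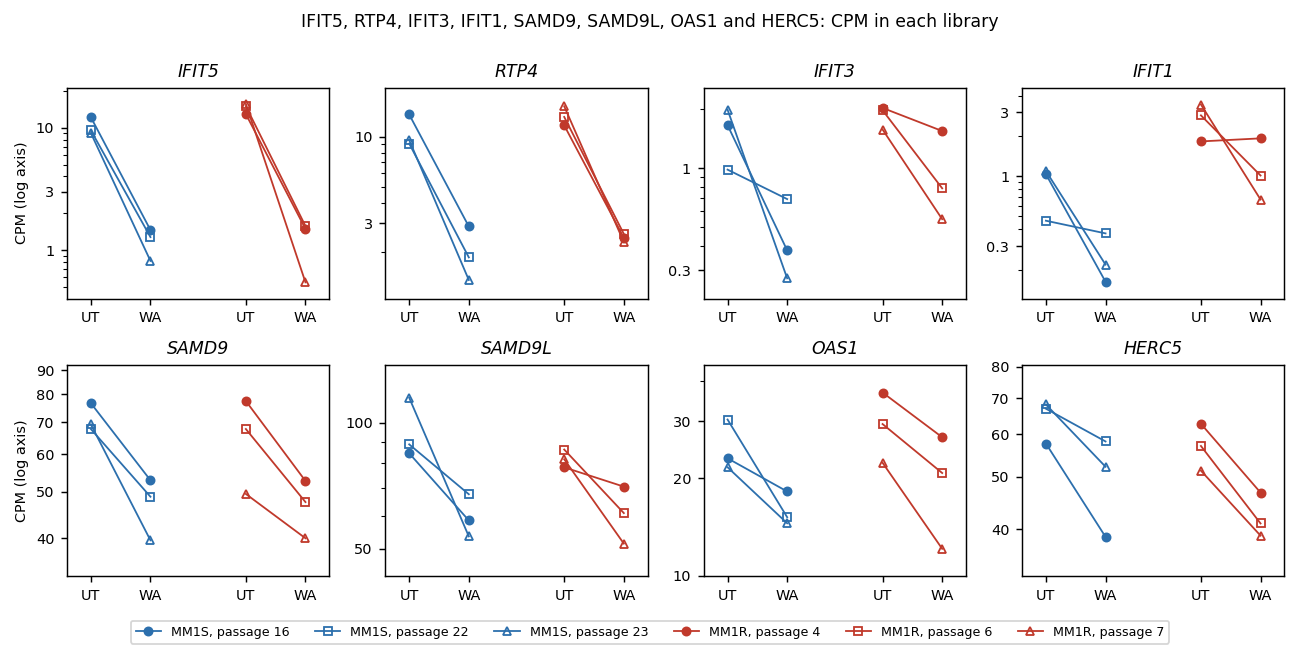
CPM on a log axis for 8 genes in each library, with lines joining the untreated (UT) and WA culture of the same passage, MM1S on the left and MM1R on the right of each panel. IFIT5 drops from 9.05 to 15.6 CPM down to 0.548 to 1.58 CPM in all 6 passages, and IFIT1 at MM1R passage 4 is the only line that does not slope downward.

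EIF2AK2 was the one gene called higher in both lines in the edgeR fit of 14085 genes without the block. DESeq2 without the block called BST2, EIF2AK2, PARP9 and XAF1 higher in both lines, and the block called the further genes named above. EIF2AK2 encodes PKR, a kinase that halts translation when it meets double-stranded RNA, and lies on chromosome 2 (37326353 to 37384123, minus strand, GRCh37). It was at 85.4, 85.6 and 90.8 CPM in MM1R UT and at 134, 142 and 118 CPM in MM1R WA. In MM1S it was at 89.5, 85.0 and 102 CPM untreated and at 137, 156 and 144 CPM with WA. The WA libraries lay above all untreated libraries in each line. It rose by 0.59 ± 0.11 on the log2 scale in MM1R (1.51-fold, adjusted p = 0.0028) and by 0.66 ± 0.11 in MM1S (1.58-fold, adjusted p = 0.0015), and it was called whichever of the 12 libraries was omitted.

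XAF1, which encodes an antagonist of the caspase inhibitor XIAP, was at 0.729, 0.439 and 0.408 CPM in MM1R UT and at 7.47, 2.31 and 1.83 CPM in MM1R WA. It rose there by 2.86 ± 0.77 on the log2 scale (7.27-fold, adjusted p = 0.024), from 7 to 14 reads to 30 to 140 reads. XAF1 was above the filter limit in 1 of 3 untreated libraries of each line and in every WA library, so it was tested because of the level it had with WA. The call was lost without MM1R UT passage 6 or 7 or MM1R WA passage 4 (adjusted p up to 0.133). In MM1S it was at 1.35, 0.413 and 0.348 CPM untreated and at 5.53, 1.87 and 0.710 CPM with WA, so that the groups overlapped although each passage was higher with WA. The log2 fold change of 1.94 ± 0.74 in MM1S had an adjusted p of 0.12, and of 0.0010 with the block (alternatives from 1.02e-05 to 0.513).

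BST2 was at 316, 324 and 315 CPM in MM1S UT and at 462, 408 and 438 CPM in MM1S WA, and rose by 0.45 ± 0.12 on the log2 scale (1.37-fold, adjusted p = 0.027). In MM1R it was at 274, 306 and 372 CPM untreated and at 369, 418 and 428 CPM with WA (log2 0.35 ± 0.12, adjusted p = 0.063, 0.0054 with the block, alternatives 0.00134 to 0.222). The groups overlapped only in MM1R, by 1 library on each side. The call in MM1S was lost without any of the 3 MM1S UT cultures, MM1S WA passage 16 or 23, or MM1R UT passage 6 (adjusted p up to 0.0962).

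The MX genes and PARP9 had large average changes that varied widely between the cultures of a line. MX1 was at 94.0, 43.5 and 20.6 CPM in MM1R WA at passages 4, 6 and 7, against the even untreated levels given above, and at 54.8, 19.1 and 12.01 CPM in MM1S WA. MX1 at passage 7 of MM1R thus changed by 0.01 on the log2 scale and at passage 4 by 2.12, while the 3 MM1S passages changed by 1.26, 1.41 and 1.19. It changed on average by 1.37 ± 0.61 in MM1R (log2, adjusted p = 0.16, 0.0076 with the block) and 1.29 ± 0.62 in MM1S (0.22, 0.0060 with the block), over alternatives from 1.49e-14 to 0.607 and from 4.04e-12 to 0.737. MX2 went to 19.3, 7.31 and 1.95 CPM in MM1R WA and to 11.3, 2.19 and 1.64 CPM in MM1S WA (log2 1.85 and 1.07, adjusted p = 0.21 and 0.53), and its value in MM1S was -0.31 without MM1S WA passage 16, a fit that keeps the untreated culture of that passage. Within the 3 MM1S pairs MX2 was higher by 0.90, 1.48 and 1.67, and with the block its value was 1.22 (adjusted p = 0.039, alternatives 0.00236 to 0.892). PARP9, a partner of the ubiquitin ligase DTX3L, went from 1.25, 1.21 and 1.05 CPM to 6.99, 3.71 and 1.16 CPM in MM1R and from 2.18, 0.878 and 0.696 CPM to 4.93, 3.42 and 2.13 CPM in MM1S (log2 1.76 and 1.48, adjusted p = 0.051 and 0.11). DTX3L itself, which shares a promoter region with PARP9 in opposite orientation, had log2 values of -0.27 and -0.72 (adjusted p = 0.57 and 0.098).

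**Figure D3:**
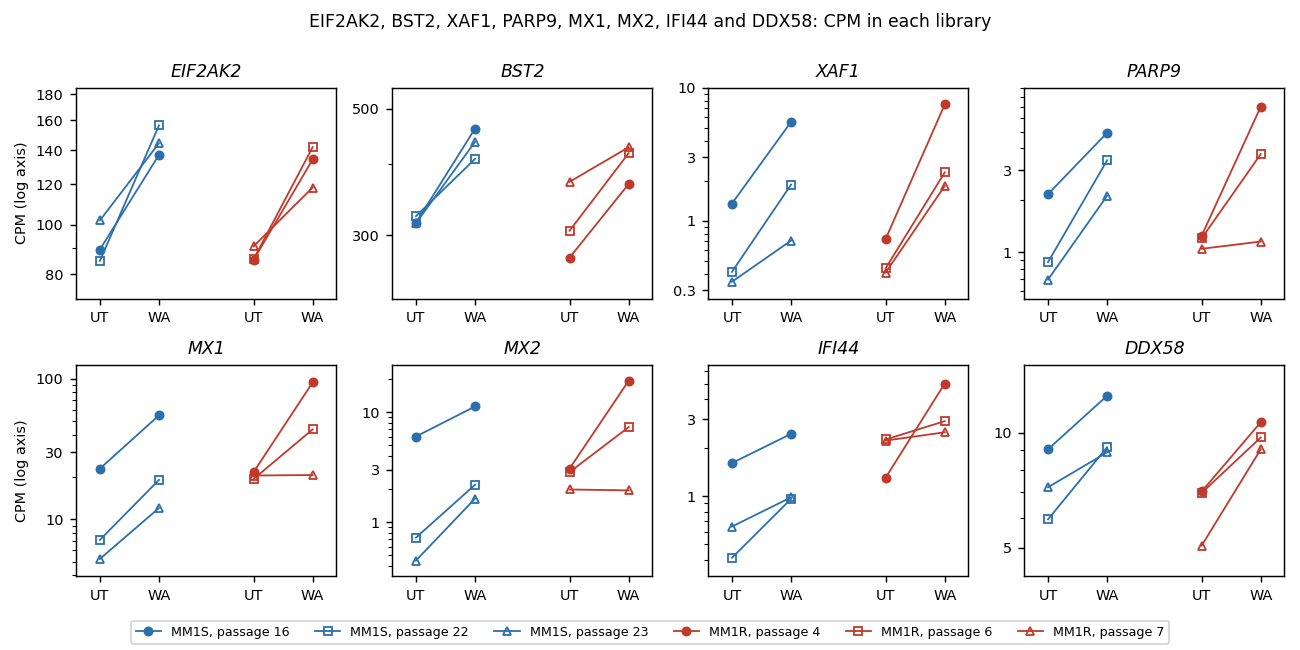
CPM on a log axis for 8 further genes in each library, with lines joining the untreated (UT) and WA culture of the same passage, MM1S on the left and MM1R on the right of each panel. EIF2AK2 and BST2 climb in every passage, while MX1, MX2 and PARP9 climb most at MM1R passage 4 and stay nearly level at MM1R passage 7.

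The remaining effectors and sensors were not called in either line in the edgeR fit of 14085 genes without the block. Other fits without the block called some of them. DESeq2 called DDX58, HERC5, IRF1 and RSAD2 in MM1R and IFIH1 in MM1S. With no filter on low counts, edgeR called HERC5 and RSAD2 in MM1R and TRIM22 in both lines. DDX58, which encodes the viral RNA sensor RIG-I, was at 7.03, 6.97 and 5.07 CPM in MM1R UT and at 10.7, 9.73 and 9.07 CPM in MM1R WA (log2 0.63 ± 0.20, adjusted p = 0.056), with no overlap. IFIH1, the sensor MDA5, had the opposite sign in both lines (log2 -0.33 and -0.39, adjusted p = 0.14 and 0.096). RSAD2, the antiviral enzyme viperin, had 5, 4 and 1 reads in MM1R UT and 49, 16 and 4 in MM1R WA (log2 2.75 ± 0.87, adjusted p = 0.051) and stayed at 11 reads or fewer in MM1S. It passed the filter with no untreated library above the limit of 0.539 CPM, as did TRIM22, a restriction factor with at most 9 reads untreated and 38 with WA. HERC5, the ligase that attaches ISG15 to other proteins, had log2 values of -0.43 and -0.37 (adjusted p = 0.064 and 0.13), and ISG15 itself 0.64 and 0.44 (adjusted p = 0.42 and 0.64). Of the other abundant genes, STAT2 had log2 values of 0.18 in MM1R and 0.08 in MM1S, and ADAR 0.02 and -0.05. ISG20 had 0.18 and 0.02, and IFI35 0.21 and 0.07. The STAT2 pairs of MM1R were uneven, at -0.14, 0.09 and 0.65 at passages 4, 6 and 7. IRF1 was lower with WA in each of the 6 pairs. Its log2 values were -0.31 in MM1R (adjusted p = 0.066, 0.017 with the block, alternatives 0.00928 to 0.293) and -0.16 in MM1S (0.40, 0.21 with the block). Over 12 genes, IRF1 and ISG15 among them, the log2 values lay between -0.40 (IFITM2) and 0.86 (IFI44) in MM1R. In MM1S they lay between -0.37 (IFITM2) and 0.75 (IFITM1). The 12 genes are USP18, DHX58, IFITM1, IFITM2, HERC6, PARP14, CMPK2, IFI6, IFI44, SP110, IRF1 and ISG15.

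Across the 6 passage pairs, 8 of the 37 genes were higher with WA in every pair (DDX58, MX1, BST2, EIF2AK2, PARP9, IFI6, IFI44 and XAF1), 12 were lower in every pair (IRF1, IFIH1, IFIT3, IFIT5, OAS1, OAS2, OAS3, HERC5, DTX3L, SAMD9, SAMD9L and RTP4) and 17 were mixed. Of all tested genes, 20.04% were higher and 19.96% lower in every pair. The ISRE core was found upstream of 7 of the 11 consistently lower genes with a RefSeq entry, of 5 of the 8 consistently higher genes and of 6 of the 12 mixed ones. IFIT5 and RTP4 count among the lower genes and among those with a match, but entered the set for their fall in MM1R. XAF1, on the higher side, was tested because of its level with WA. Nothing about the set is read from these counts.

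**Figure D4:**
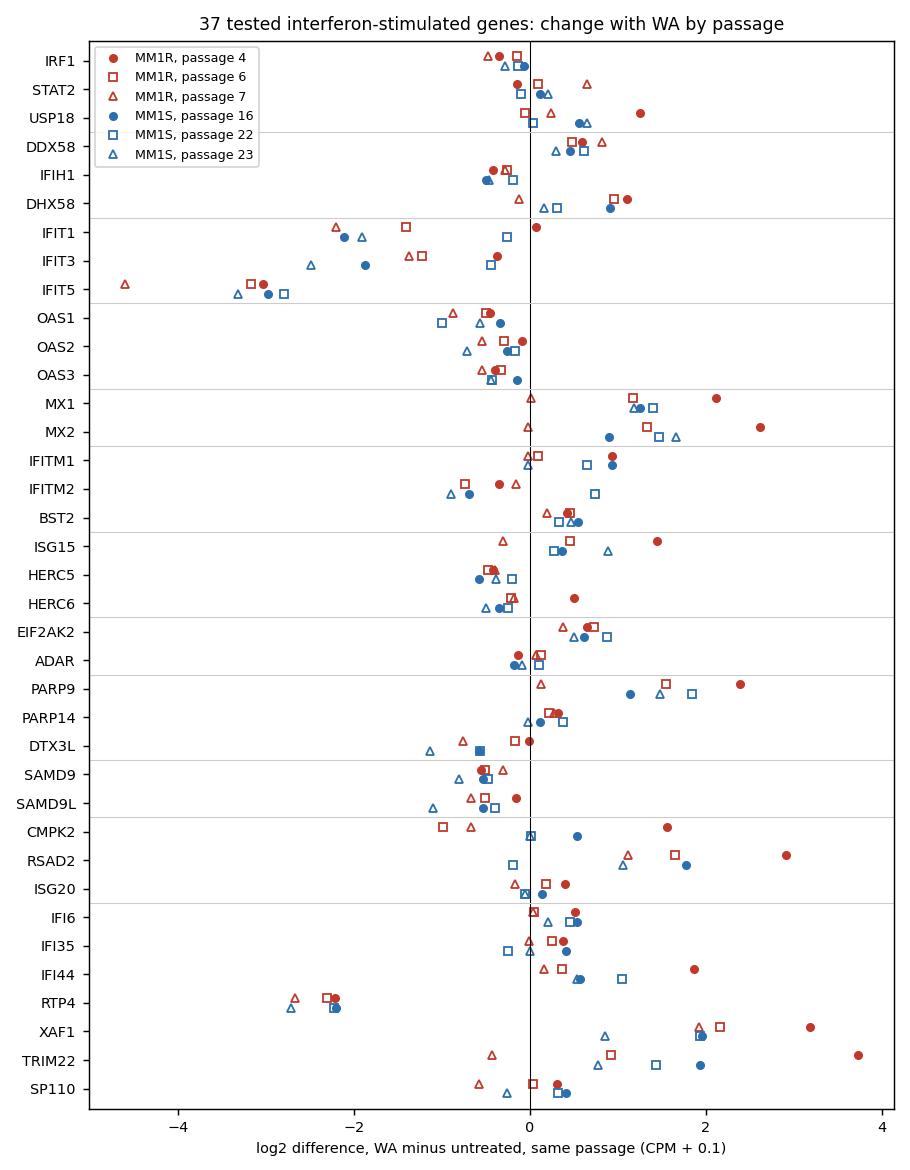
Log2 difference, WA minus untreated culture of the same passage (CPM with 0.1 added), for the 37 tested genes ordered by role, with 3 passages of MM1R (red) and 3 of MM1S (blue) and a line at 0. IFIT5 and RTP4 lie far to the left in all 6 pairs, and MM1R passage 4 (filled red circles) lies to the right of passage 7 (open red triangles) for most genes.

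The size of the upward changes differed between cultures. At passage 4 of MM1R, 11 of the 37 genes were higher by more than 1 on the log2 scale (29.7%, beside 5.54% of all genes), at passage 6 there were 5 (13.5%, beside 4.76%) and at passage 7 there were 2 (5.41%, beside 9.499%). In MM1S the counts were 5, 6 and 4 at passages 16, 22 and 23, beside 6.50%, 3.88% and 6.26% of all genes. RSAD2, TRIM22 and XAF1 enter these counts in some pairs, with 0, 0 and 2 untreated libraries above the filter limit. They were tested because of their level with WA, so these shares support nothing about the set. At passage 7 of MM1R the 2 genes were RSAD2 (1.12) and XAF1 (1.92). Lower by more than 1 were 2, 4 and 4 of the genes in the MM1R pairs, beside 1.49%, 1.93% and 3.24% of all genes. In the MM1S pairs there were 4, 2 and 6, beside 2.15%, 1.92% and 2.06%. IFIT5 and RTP4, chosen for their fall in MM1R, were among them in every pair. The median change over the 37 genes was 0.38, 0.05 and -0.17 in the 3 MM1R pairs and 0.14, 0.02 and -0.02 in the 3 MM1S pairs, whereas the median of all genes stayed between 0.00 and 0.02. HMOX1 had its highest level in MM1R WA at passage 7 (3005 CPM) and its lowest there at passage 4 (1040 CPM). What sets these cultures apart was not tested.

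The last comparison asked whether the response to WA differed between the lines. None of the 37 genes was called for the difference of the WA effects (edgeR and DESeq2, adjusted p under 0.05), none had an unadjusted p under 0.05, and the lowest was 0.20 for IFIT3. Of all genes edgeR called 0.0%, with 97 of the 14085 at an unadjusted p under 0.05, and DESeq2 called 1. IFIT5 differed by -0.47 and RTP4 by -0.05 on the log2 scale (MM1R minus MM1S), while MX2, XAF1 and RSAD2 differed by 0.78, 0.92 and 1.44 with too few reads or too wide a spread to be told from 0.

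The signalling genes outside the set were read in the same fits, from a list of 50 ligands, receptors, kinases, adaptors, other IRFs and negative regulators, of which 29 were tested. In MM1R 7 were called (4 higher, 3 lower, 24.1%) and in MM1S 3 (2 higher, 1 lower, 10.3%), beside the 14.0% and 10.5% of all genes, and none between the untreated lines, where 4 (13.8%) had an unadjusted p under 0.05 beside 25.9% of all genes. With the block there were 10 in each line (34.5%, with 5 higher and 5 lower in MM1R and 4 higher and 6 lower in MM1S), beside 29.1% and 24.1% of all genes. IRF4, the plasma cell regulator, was at 1138, 1228 and 986 CPM in MM1R UT and at 547, 549 and 631 CPM in MM1R WA, and fell by 0.96 ± 0.18 on the log2 scale (adjusted p = 0.0032). In MM1S it fell by 0.73 ± 0.18 (adjusted p = 0.019), a call lost without MM1S UT passage 22 or 23 or MM1S WA passage 16. CGAS, the cytosolic DNA sensor, rose by 0.81 ± 0.14 in MM1R (adjusted p = 0.0024) and by 0.59 ± 0.14 in MM1S (0.019), the latter call being lost without MM1S UT passage 16 or 23 or MM1S WA passage 23. IRF8, a lymphoid and myeloid IRF, rose by 0.67 ± 0.17 in MM1R (0.021) and by 0.70 ± 0.17 in MM1S (0.020), and each of these calls was lost on leaving out any of 4 libraries: MM1R UT passage 6 or 7 or MM1R WA passage 4 or 6 in the first line, and any MM1S UT culture or MM1S WA passage 16 in the second.

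Of the genes called in MM1R and not in MM1S, TICAM1, the adaptor TRIF (0.45 ± 0.12, adjusted p = 0.024), and SOCS3, a feedback inhibitor of STAT signalling (2.75 ± 0.83, 0.041), were higher, and IKBKE, a kinase that activates IRF3 (-0.57 ± 0.17, 0.038), and IRF2 (-0.46 ± 0.14, 0.046) lower. In MM1S the values were 0.16 (adjusted p = 0.46), 0.87 (0.50), -0.50 (0.073) and -0.43 (0.069), none of the 4 differences between lines had an unadjusted p under 0.05, and with the block IKBKE and IRF2 were called in both lines. SOCS3 rested on 0 to 3 reads in MM1R untreated and 6 to 21 with WA. It was above the filter limit of 0.539 CPM only at MM1R WA passage 4 (1.12) and in MM1S UT (0.570) and MM1S WA (0.758) at passage 16. No MM1R UT library was above it, so this call supports nothing about the list. These 4 calls were lost on leaving out 4, 8, 6 and 9 of the 12 libraries one by one, with adjusted p up to 0.101, 0.190, 0.123 and 0.199. For TICAM1 these were passages 6 and 7 of MM1R UT and MM1R WA, and for the other three any of the 6 MM1R libraries, to which SOCS3 added MM1S UT passage 22 and MM1S WA passage 23, and IRF2 the 3 MM1S UT cultures.

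Some of these counts are uncertain by their genome context. IFITM2 and IFITM3 are near-identical copies, and CMPK2 with RSAD2 and PARP9 with DTX3L are pairs on opposite strands whose starts lie close together. Whether counting used strand, and what was done with reads that fit several places, is not given in the sources used here.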

How the data were processed

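Total RNA of 12 cultures was sequenced as paired reads on a BGISEQ-500. The authors checked reads with FastQC 0.11.5, mapped them with STAR 2.7.3a to hg19 and deposited raw counts per gene, which were used here. The gene annotation and strand setting are not given in the sources used here. A second deposited table, of counts divided by DESeq2 size factors, was not used.

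Cell line, treatment and passage came from the labels. Counts were analyzed with edgeR 4.0.16 in R 4.3.3: genes were kept by filterByExpr (minimum count 10), scaled with TMM and fitted in 1 quasi-likelihood model with a coefficient for each of the 4 groups, and p-values were adjusted by Benjamini-Hochberg over all 14085 genes tested. WA effects and their difference between lines were called at an adjusted p under 0.05, and MM1R against MM1S at an adjusted p under 0.01 with a log2 fold change of at least 1 in size. Standard errors (SE) are those of the log2 fold change. The scripts were tested on simulated data.

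The study calls the 3 cultures of a group independent biological samples. Passage numbers paired the cultures: the deviations of same-passage untreated and WA cultures from their group means correlated at 0.39, 0.18 and 0.22 in MM1R (passages 4, 6 and 7) and 0.71, 0.25 and 0.44 in MM1S (passages 16, 22 and 23), so a fit with passage as a replicate block is given beside the counts. Between different passages the values ran from -0.59 to 0.37. In MM1S, UT passage 22 with WA passage 23 (0.31) and UT 23 with WA 22 (0.37) exceeded the 0.25 within passage 22. Other alternatives were DESeq2 1.42.0, its size factors in edgeR, no filter, at least 10 reads in every library, only the 6 libraries compared, edgeR's test against a fold change of 2, and each library left out. The fits without passages 4 and 16 and with summed IRF7 entries were chosen after seeing the data.

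Members and lists were chosen with earlier results of these data known, and IFIT5 and RTP4 for their change in MM1R. Named genes are those called in a comparison (up to 12 by size), IFIT5 and RTP4, the 6 highest per length in each untreated line, those with no more than 3 reads in every library and called pathway genes (up to 6 by p). One further gene of the rule is not reported here. HMOX1, NR3C1 and BTK checked the labels. Other members are given so that all 45 are accounted for. Positions are those of the canonical transcript in GENCODE v44 lifted to GRCh37, and upstream sequences are RefSeq's on GRCh38.p14.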

Additional observations from a re-analysis of the deposited data

Results flagged for a closer look

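IRF7 is split over 2 entries of the count table, and the larger one carries a suffix and is no member of the set. IRF7_1 held at least 47 reads in every library, against the 3 reads used as the limit of detection, and 89.0% to 94.8% of the reads of both entries. It was singled out because it is signal in data that the comparisons of the set did not use. How its reads came to be counted apart was not tested.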

How the results depend on the processing

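The number of genes called varied with the alternatives. In MM1R the 4 genes called became 15 with no filter on low counts, 12 with DESeq2, 9 with only the 6 libraries compared, 20 with passage as replicate block in edgeR, 16 with that block in DESeq2 and 8 without passages 4 and 16. In MM1S the 7 became 16 with no filter, 12 with DESeq2, and 19 and 17 with the replicate block in edgeR and DESeq2. Between the untreated lines the 0 became 1 with an adjusted p under 0.05 and no limit on the fold, 2 with no filter and 3 without passages 4 and 16. The fit without passages 4 and 16 was chosen after the values were seen. Leaving out 1 library gave 3 to 8 genes in MM1R (7 without MM1R WA passage 7, MM1S UT passage 16 or MM1S UT passage 23, and 8 without MM1S WA passage 16), 3 to 9 in MM1S (3 without MM1S UT passage 23, 4 without MM1S WA passage 23) and 5 to 10 calls among the pathway genes over all comparisons (5 or 6 without MM1R UT passage 6 or 7, MM1R WA passage 4 or 6, or MM1S UT passage 22 or 23). The causes were not tested. The 0 calls among the set for the difference between lines held under every alternative run. Of the 63 values of genes named for a call, 1 turned its direction with a library left out: MX2 in MM1S changed by -0.31 without MM1S WA passage 16 (adjusted p = 0.892), and by 3.09 without MM1S UT passage 16. Over all 37 genes, 6 values in MM1R and 11 in MM1S took both signs with a library left out, none of them a call, among them CMPK2 and IFITM1 in both lines, HERC6 in MM1R and ISG15 in MM1S. Of 756 values of named genes with a library left out, 670 kept their direction and side of the threshold, 61 lost and 24 gained a call, and of 532 under the other alternatives these were 397, 10 and 125. Precision is limited for genes with few reads, such as IFIT1, IFIT3, RSAD2 and XAF1. No paired analysis was possible because the lines share no passage in the comparison of untreated lines.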
